A study of Xenopus laevis with 7 samples.

Results

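Keratins, claudins and other genes of the epithelial junctions were followed in gastrulae of Xenopus laevis, the African clawed frog. Members were taken by the human symbol that the expression table gives each transcript: any numbered keratin (KRT), claudin (CLDN), zonula occludens protein (TJP) or connexin (GJA, GJB, GJC), together with EPCAM, OCLN and F11R. This gave 166 of 44421 transcripts. They comprised 68 keratins, 44 claudins, 8 zonula occludens proteins, 39 connexins and 7 transcripts of EPCAM, occludin and F11R, under 53 human symbols in all. The human symbol is the best protein match and not a statement of orthology, so frog transcripts with several names can carry a single human symbol.

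All embryos were wild type, of the Nasco strain label, untreated and at stage 10.5. Whole embryos gave 1 library, and the dorsal and the ventral lip of the blastopore 3 libraries each, and both kinds of lip were cut out in Barth's solution while the whole embryos were not. Replicate numbers mark experiments: the whole embryo library and the first lip of each side belong to experiment 1, and the 4 lips of experiments 2 and 3 shared a sequencing lane. How many embryos or explants were pooled per library is not given in the sources used here, and nothing ties replicates to different clutches. The p-values therefore cover the spread between these libraries, part or all of which may be technical.

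An epithelium is held together by keratin filaments inside its cells and by junctions between them. Keratins are built from a type I and a type II chain in equal parts, and KRT8 with KRT18 is the pair of simple and embryonic epithelia. Tight junctions seal the gap between neighbours. Claudins and occludin form the seal, the immunoglobulin-like protein F11R (junctional adhesion molecule A) lies beside it, and the zonula occludens proteins anchor it to actin from inside. EPCAM is an adhesion protein of epithelial surfaces, and connexins form the gap junction channels through which coupled cells exchange small molecules. In the Xenopus gastrula the outer cell layer is a polarized epithelium with tight junctions, and keratins are well known products of the outer layer and of the prospective epidermis. Xenopus laevis carries a pair of subgenomes, L and S, so that many genes are present as an L copy beside an S copy.

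The libraries held between 27083637 and 38903417 mapped reads, so that 1 read over 1 kb of transcript was worth 0.0257 to 0.0369 RPKM (reads scaled to transcript length in kb and to the mapped reads of the library). A count of 3 reads over 1 kb, taken as the limit that a value of 0 allows, was 0.0771 to 0.111 RPKM. The labelled tissues carried their markers: the summed level of chordin, goosecoid and noggin transcripts was 1015 to 1113 RPKM in dorsal lips and 3.19 to 7.44 RPKM in ventral lips. The summed level of the ventral genes sizzled, BAMBI, WNT8A and MSX1 was 16.7 to 30.7 RPKM in dorsal lips and 228 to 478 RPKM in ventral lips. Of these, MSX1 was low in the ventral lips of experiments 2 and 3. In ventral lips of experiments 1, 2 and 3, msx1.S measured 32.2, 1.87 and 2.63 RPKM and msx1.L 21.5, 0.841 and 1.10 RPKM. Both lips of experiment 1 stood apart from the other 4, and results that rest on this are given by experiment. In bulk tissue, fewer cells of a type and less RNA per cell cannot be told apart.

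Many members were at or near 0. Of the 166 members, 49 (29.5%) were listed at 0 in all 7 libraries, against 20.5% of all transcripts, 75 were above 0 but under 1 RPKM everywhere, and 42 reached 1 RPKM in at least 1 library. These 42 were 13 keratins, 11 claudins, 8 zonula occludens proteins, 4 connexins and 6 transcripts of EPCAM, occludin and F11R. Averaged over the 7 libraries, 11 members reached 100 RPKM or more. All 15 transcripts matched to the type II keratin KRT75 stayed at or below 0.0945 RPKM, and all 6 matched to CLDN8 and all 5 matched to CLDN22 were listed at 0. The connexin GJA1, a widespread gap junction protein of adult tissues, did not exceed 0.110 RPKM in either of its copies.

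**Figure D1:**
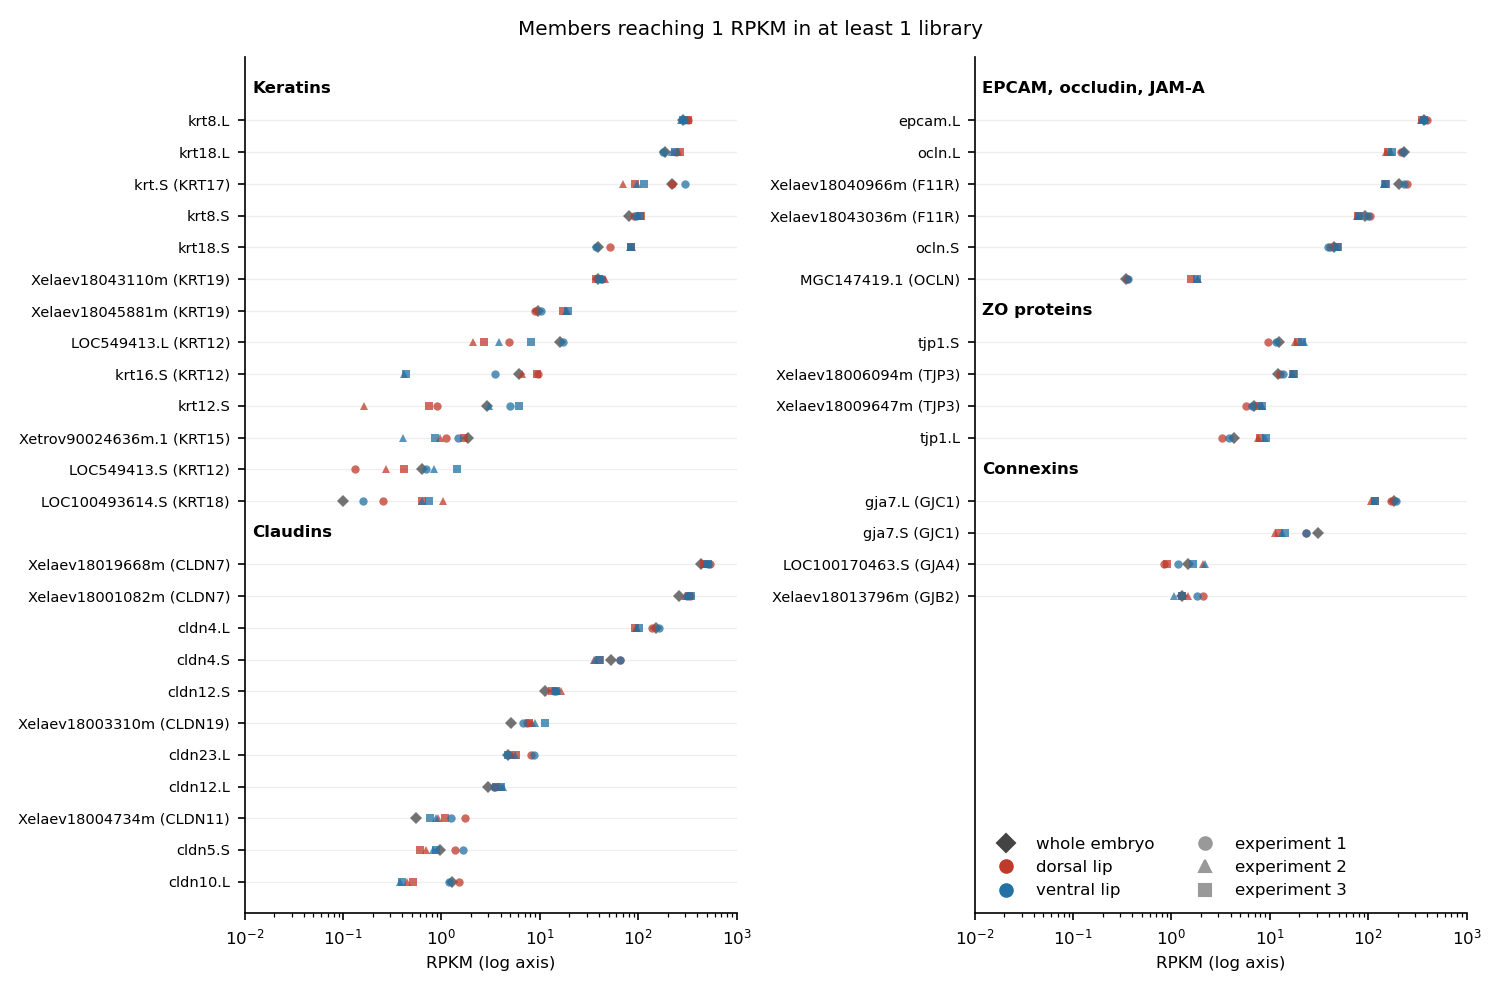
Level of 38 members that reached 1 RPKM in at least 1 library, in RPKM on a log axis, by family; each point is 1 library, coloured by tissue and shaped by experiment. For most members the 7 points lie close together, while krt16.S, krt12.S and LOC549413.L spread widely and krt.S, krt18.S and several junction genes split by experiment.

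Among the keratins the simple-epithelial pair was the most abundant by mean over the 7 libraries. The type II keratin krt8.L measured 283 RPKM in the whole embryo, 323, 313 and 318 RPKM in dorsal lips and 290, 273 and 283 RPKM in ventral lips, in the order of experiments 1, 2 and 3, which is kept throughout. Its S copy, krt8.S, measured 79.7 RPKM in the whole embryo, between 90.3 and 106 RPKM in dorsal lips and between 94.5 and 104 RPKM in ventral lips. The type I partner krt18.L measured 185 RPKM in the whole embryo, 243, 255 and 267 RPKM in dorsal lips and 180, 223 and 236 RPKM in ventral lips. Both copies of krt8 and krt18 together held 66.2% of the summed keratin RPKM in the whole embryo, 70.8 to 83.8% in dorsal lips and 61.4 to 80.2% in ventral lips. The next most abundant by mean was a further type I keratin, krt.S, whose best human match is KRT17. At 222 RPKM it was above krt18.L in the whole embryo. In the ventral lip of experiment 1, at 296 RPKM, it was above both krt8.L and krt18.L.

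Type II keratins were few: 2 of 22 transcripts, both of them krt8, reached 1 RPKM, against 11 of 46 type I transcripts. Summed over all members, the ratio of type I to type II RPKM was 1.44 in the whole embryo, 1.42, 1.19 and 1.22 in dorsal lips and 1.55, 1.27 and 1.33 in ventral lips. The ratio was lower in the dorsal than in the ventral lip of each experiment, and higher in both lips of experiment 1 than in the other 4 lips. The order between experiments rests on a single type I transcript, krt.S. The order between sides rests on krt.S together with the higher type II sums of dorsal lips. Neither order is a trait of the type I keratins as a family. The transcript krt.S measured 223, 69.3 and 92.7 RPKM in dorsal lips and 296, 96.9 and 115 RPKM in ventral lips. The type I sums were 586, 486 and 516 RPKM in dorsal lips and 595, 472 and 514 RPKM in ventral lips. In experiments 2 and 3 the type I sum was thus the higher in the dorsal lip. The type II sums were 414, 410 and 424 RPKM in dorsal lips and 384, 372 and 387 RPKM in ventral lips. The ratios given are of RNA levels per transcript length, not of protein.

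Claudin RNA came almost entirely from CLDN7 and CLDN4 transcripts. Xelaev18019668m and Xelaev18001082m, both matched to CLDN7, measured 430 and 260 RPKM in the whole embryo. In dorsal lips Xelaev18019668m measured 536, 466 and 463 RPKM and in ventral lips 512, 500 and 514 RPKM, which makes it the most abundant member. Together with both copies of cldn4 they held 96.0 to 96.8% of the claudin sum in every library. The copy cldn4.L measured 153 RPKM in the whole embryo, 138, 95.0 and 92.5 RPKM in dorsal lips and 164, 96.8 and 103 RPKM in ventral lips. In the RefSeq gene order of assembly v10.1, cldn4.L lies next to cldn3.L, whose mean level was 0.0357 RPKM against 120 RPKM for cldn4.L.

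Several other junction genes also exceeded 100 RPKM. EPCAM, with 1 transcript (epcam.L), measured 369 RPKM in the whole embryo, 391, 343 and 353 RPKM in dorsal lips and 373, 351 and 370 RPKM in ventral lips. Occludin ocln.L measured 232 RPKM in the whole embryo, 218, 152 and 157 RPKM in dorsal lips and 228, 169 and 172 RPKM in ventral lips. Of the F11R transcripts, Xelaev18040966m measured 206 RPKM in the whole embryo, 248, 145 and 153 RPKM in dorsal lips and 229, 143 and 147 RPKM in ventral lips. For ocln.L and Xelaev18040966m experiment 1 was the highest of the 3 experiments on both sides of the embryo. All 8 zonula occludens transcripts reached 1 RPKM. Those of TJP1 and TJP3 lay between 3.29 and 22.1 RPKM in every library.

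Gap junction RNA was nearly all from gja7, whose best human match is GJC1. Its copies held 96.4 to 98.0% of the connexin sum in every library. The copy gja7.L measured 181 RPKM in the whole embryo, 170, 106 and 116 RPKM in dorsal lips and 190, 114 and 116 RPKM in ventral lips. The next connexins, LOC100170463.S (GJA4) and Xelaev18013796m (GJB2), stayed between 0.841 and 2.22 RPKM. Of the 39 connexin transcripts, 35 did not reach 1 RPKM in any library.

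The members held 46 pairs of an L and an S copy. In 14 pairs at least 1 copy averaged 1 RPKM or more, and in 12 of these the same copy was higher in all 7 libraries. The L copy was higher in cldn4, gja7, LOC549413, krt18, krt8 and ocln, and the S copy was higher in cldn12, krt, krt12, krt16 and tjp1, among others. The order varied between libraries for cldn5. The most unequal pairs were keratins: krt.S averaged 159 RPKM and krt.L 0.346 RPKM, krt16.S averaged 5.15 RPKM and krt16.L 0.0527 RPKM, and krt12.L held 1 read in all libraries together against 934 for krt12.S. The copies of krt have different best human matches, KRT17 for krt.S and KRT19 for krt.L. How reads that fit both copies were counted is not given in the sources used here, so levels of near-identical copies, and of tandem keratin genes, are uncertain to that degree.

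**Figure D2:**
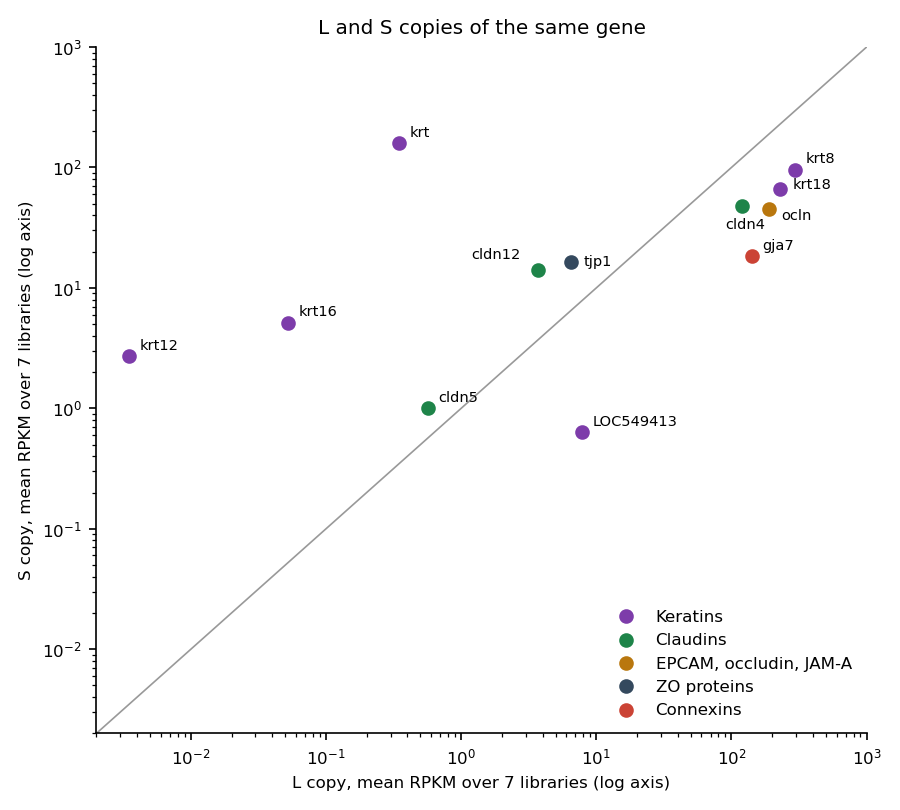
Mean RPKM over the 7 libraries of the L copy (horizontal) and the S copy (vertical) of 12 pairs with a copy at 1 RPKM or more, on log axes, coloured by family; the line marks equal levels. The krt, krt16 and krt12 pairs lie far above the line, and gja7 and LOC549413 furthest below it.

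The comparison of dorsal with ventral lips asks which of these genes differ between the organizer side and the opposite side of the embryo. A mean of 1 RPKM or more in the lips was reached by 39 members, which could be tested: 11 keratins, 10 claudins, 8 zonula occludens proteins, 4 connexins and 6 transcripts of EPCAM, occludin and F11R. Once each lip was compared within its own experiment, the members that differed were keratins, in both directions. Without regard to experiment, 0 of the 39 passed limma at an adjusted p of 0.05, where 0.327% of all 16514 transcripts did, 0.248% on the dorsal and 0.0787% on the ventral side. At an unadjusted p under 0.05 there were 3 members and 515 transcripts. With the experiment number as a block, so that each dorsal lip is set against the ventral lip of its own experiment, 5 members passed, 2 of them higher in dorsal and 3 higher in ventral lips. The background with the block was 4.71% of all transcripts, 2.37% dorsal and 2.34% ventral. All 5 were keratins, while 0 of the claudins, zonula occludens proteins, connexins and transcripts of EPCAM, occludin and F11R passed with the block on log2(RPKM + 0.5). At an unadjusted p under 0.05 with the block there were 7 of these, 13 of all 39 members and 4335 of all 16514 transcripts.

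Over the 39 members the median log2 fold change, dorsal minus ventral on log2(RPKM + 0.5), was -0.03, and that of all transcripts was -0.05. The median size of the fold change, whatever its sign, was 0.12 in the members and 0.10 in all transcripts. Within 0.5 of 0 lay 36 of the 39 members and 15701 of all 16514 transcripts, so the members were no closer to 0 than the rest. The ranges of dorsal and ventral values did not overlap for 4 members, all keratins, and for 6.9% of all transcripts tested.

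The transcript krt16.S, a type I keratin whose best human match is KRT12, was the member with the largest dorsal excess. It measured 6.13 RPKM in the whole embryo, 9.62, 6.52 and 9.38 RPKM in dorsal lips and 3.54, 0.416 and 0.435 RPKM in ventral lips. The last 2 values rest on 21 and 19 reads, and every dorsal lip was above every ventral lip. The log2 fold change was 2.55 (SE 0.617), with a limma adjusted p of 0.519 without the block and 0.0359 with it (SE 0.396). By experiment the log2 differences were 1.32, 2.94 and 3.40. In the authors' deposited table, which rests on experiments 2 and 3, its dorsal to ventral ratio was 18.7 with an adjusted p of 2.45e-10, and its correlation coefficient to chordin was 0.700.

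The transcript krt12.S, also a type I keratin matched to KRT12, had the opposite pattern. It measured 2.93 RPKM in the whole embryo, 0.900, 0.164 and 0.744 RPKM in dorsal lips and 5.03, 3.03 and 6.13 RPKM in ventral lips, with no overlap. The dorsal lip of experiment 2 held 8 reads of it and the ventral lip of that experiment 145. The log2 fold change was -2.27 (SE 0.383), with a limma adjusted p of 0.173 without the block and 0.00143 with it. In the authors' deposited table its ventral to dorsal ratio over experiments 2 and 3 was 10.1 with an adjusted p of 0.0313, and its correlation coefficient to BAMBI was 0.660. That coefficient is not particular to krt12.S. Its median over the 11 tested keratins was 0.471, and krt8.L, which was higher in dorsal lips, had 0.598.

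A further KRT12 match, LOC549413.L, was higher in the ventral lip of each experiment. It measured 16.2 RPKM in the whole embryo, 4.86, 2.10 and 2.71 RPKM in dorsal lips and 17.3, 3.83 and 8.05 RPKM in ventral lips. The groups overlap, since the dorsal lip of experiment 1 lies above the ventral lip of experiment 2. The log2 fold change was -1.29 (SE 0.562), with limma adjusted p of 1.00 without the block and 0.0330 with it. Its S copy, too low to be tested, measured 0.134, 0.272 and 0.421 RPKM in dorsal lips and 0.702, 0.831 and 1.46 RPKM in ventral lips, with no overlap. Of the 7 transcripts matched to KRT12, the other 3 stayed under 0.1 RPKM.

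The abundant keratin krt.S differed less, and mainly between experiments. It measured 222 RPKM in the whole embryo, 223, 69.3 and 92.7 RPKM in dorsal lips and 296, 96.9 and 115 RPKM in ventral lips. Both lips of experiment 1 were above all 4 others, and within each experiment the ventral lip was the higher, by log2 differences of -0.41, -0.48 and -0.30. The fold change of -0.40 had an SE of 0.59 and a limma adjusted p of 1.00 without the block, and an SE of 0.0436 and an adjusted p of 0.0147 with it.

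The second keratin higher in dorsal lips was krt8.L, whose values are given above. All 3 dorsal lips were above all 3 ventral lips by a narrow margin, with a log2 fold change of 0.17 (95% interval with the block 0.10 to 0.24) and a limma adjusted p of 1.00 without the block and 0.0363 with it. Its partner krt18.L had a fold change of 0.27 (0.12 to 0.41), again with no overlap, but a limma adjusted p of 0.0667 with the block. Of the S copies, krt8.S had a fold change of -0.02 (-0.11 to 0.07) and krt18.S of 0.18 (-0.07 to 0.42), with limma adjusted p of 0.80 and 0.303 with the block.

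**Figure D3:**
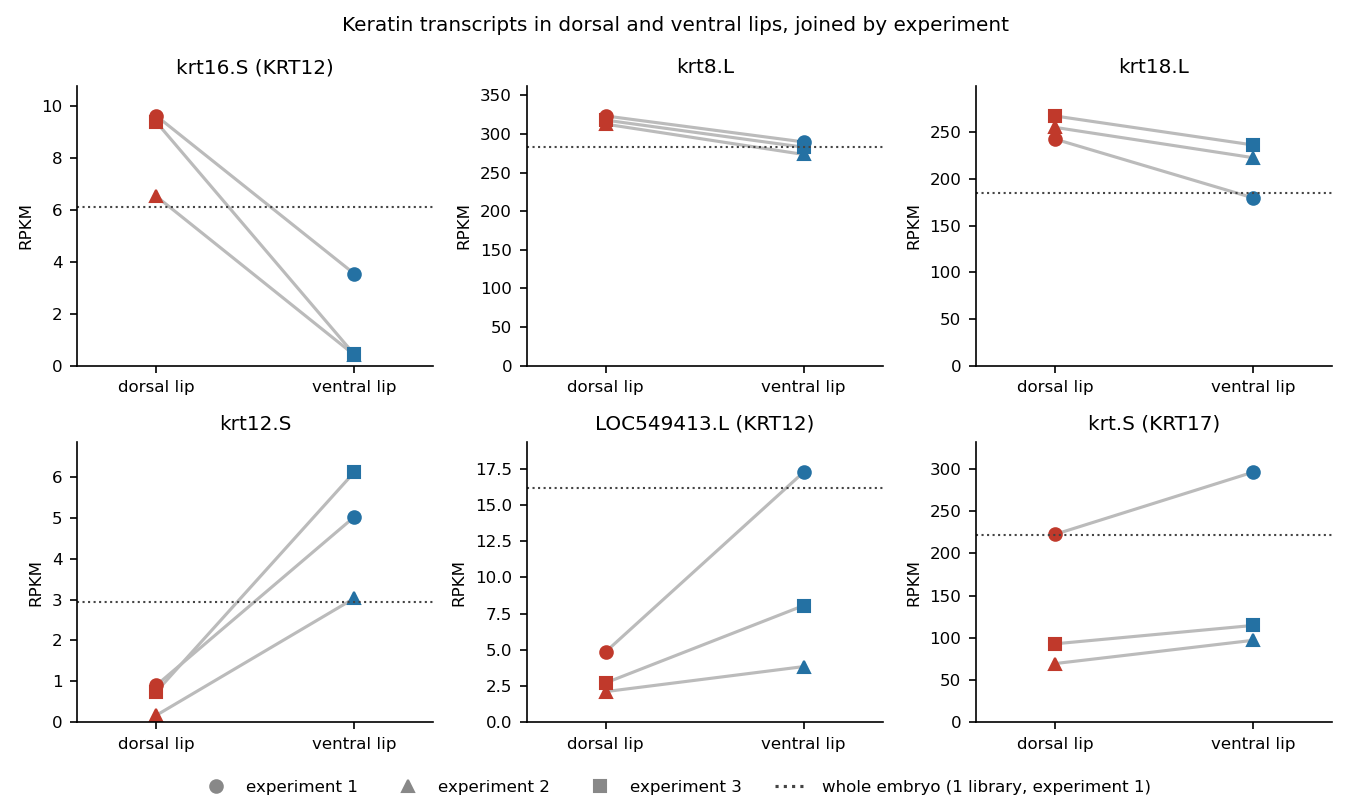
RPKM of the 5 keratins that passed limma with the block and of krt18.L, dorsal lips on the left and ventral lips on the right, 1 point per library, with lines joining the lips of an experiment; the dotted line is the single whole embryo library. In each panel the 3 lines slope the same way, down for krt16.S, krt8.L and krt18.L and up for krt12.S, LOC549413.L and krt.S.

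The 5 calls leaned on single experiments to different degrees. With the block, a lip whose partner is left out says nothing on dorsal minus ventral. Each such fit therefore drops a whole experiment, and its fold change is the same whichever lip of that experiment is left out. With the block and any 1 lip library left out, krt12.S passed limma in all 6 fits, with adjusted p up to 0.0415. These amount to leaving out experiment 1, 2 or 3 in turn. Without dorsal or ventral lip 3, LOC549413.L no longer passed (adjusted p up to 0.216). Without any of the dorsal and ventral lips 2 and 3, krt16.S, krt8.L and krt.S no longer passed limma with the block (adjusted p up to 0.205, 0.255 and 0.11). All 5 passed without either lip of experiment 1. In experiments 2 and 3 alone, limma called 2 members without the block (4.23% of all transcripts) and 7 with it (9.25%), while voom weights on the recovered reads, with the block, led limma to call 9 (10%).

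The junction genes lay close to 0 in this comparison. EPCAM had a log2 fold change of -0.01 with a 95% interval with the block of -0.10 to 0.08, and the CLDN7 transcripts Xelaev18019668m and Xelaev18001082m of -0.06 (-0.18 to 0.06) and -0.03 (-0.14 to 0.08). The copies of cldn4 had -0.14 for cldn4.L (-0.27 to -0.02) and 0.00 for cldn4.S (-0.10 to 0.10). Occludin ocln.L had -0.12 (-0.20 to -0.03), and the F11R transcripts Xelaev18040966m and Xelaev18043036m 0.06 and 0.00. The intervals are per transcript and not adjusted for the number tested. Of the zonula occludens transcripts, tjp1.S stood at -0.22 and tjp1.L at -0.21, with limma adjusted p of 0.0822 and 0.113 with the block, and of 0.0348 and 0.0434 in limma voom with the block. Over all tested junction genes, the lowest bound of a blocked 95% interval was -0.66, for the connexin LOC100170463.S at about 1 to 2 RPKM, and the highest was 0.51, for the claudin Xelaev18004734m (CLDN11).

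**Figure D4:**
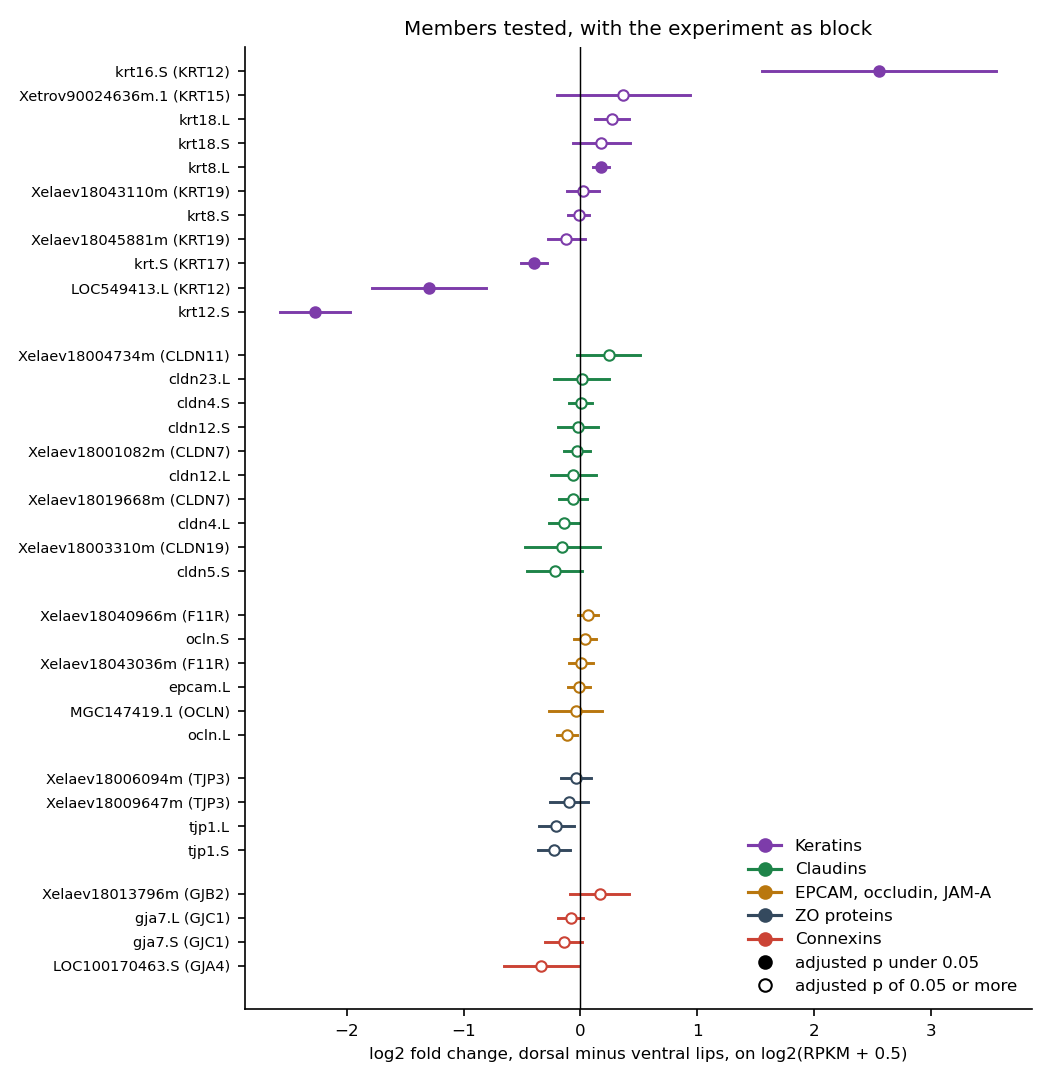
Log2 fold change, dorsal minus ventral lips, of 35 members tested, with the 95% interval of the limma fit with the experiment as block, grouped by family; filled points have an adjusted p under 0.05. The 5 filled points are keratins, and 32 of the 35 points lie within 0.5 of 0, as do 15701 of all 16514 transcripts tested.

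Markers of the tissues that a lip can hold differed between the sides as well. Transcripts of the epidermal regulators TFAP2A, FOXI1, DLX3, GRHL3 and TP63 summed to 72.3 to 102 RPKM in dorsal lips and 212 to 285 RPKM in ventral lips. Of the 9 tested with the block, 0 passed on the dorsal and 6 on the ventral side, and both TP63 copies stayed at or below 0.0418 RPKM in all libraries. Of all transcripts tested with the block, 2.37% passed on the dorsal and 2.34% on the ventral side. Of 13 transcripts matched to the neural ectoderm symbols SOX2, SOX3, ZIC1 and OTX2, 8 passed on the dorsal side and 0 on the ventral side. All 8 were OTX2 or ZIC1 matches, among them transcripts named crx and zic4, and no SOX2 or SOX3 transcript passed. The OTX2 matches also include transcripts named mix1. This list of best human matches is therefore no measure of neural ectoderm by itself. Endoderm transcripts (SOX17, GATA4, GATA5) summed to 88.4 to 139 RPKM in dorsal lips and 96.6 to 103 RPKM in ventral lips, and 4 of 6, the GATA4 and GATA5 transcripts, passed on the dorsal side. Mesoderm transcripts summed to 808 to 842 RPKM in dorsal lips and 403 to 912 RPKM in ventral lips, with 1 of 10 past the test on each side. Without the block, 5 transcripts of the neural ectoderm list passed on the dorsal side, and 0 of the epidermal, endoderm and mesoderm transcripts passed on either side. The part of these tissues in the keratin differences was not tested.

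Other epithelial gene lists, chosen with earlier results of these data known, were set beside the members. Of 30 tested tight junction partners, 1 was higher in dorsal and 2 in ventral lips with the block, beside 2.37% and 2.34% of all transcripts. Without the block, 0 of them passed on either side. The dorsal one was amotl2-like.S (AMOTL2, an angiomotin family scaffold). It measured 9.04, 6.94 and 8.61 RPKM in dorsal lips and 3.48, 1.39 and 1.66 RPKM in ventral lips. Its limma adjusted p was 0.191 without the block and 0.0103 with it. The ventral ones were both copies of a transcript matched to the junction scaffold MAGI1. Xetrov90026635m.S stood at a log2 fold change of -0.73 (with the block, limma adjusted p = 0.0130) and Xetrov90026635m.L at -0.42 (0.0302). For both copies the dorsal and ventral values overlapped. Of 29 apical polarity genes, 18 desmosome and plakin genes and 1 pannexin, 0 passed limma with or without the block. At an unadjusted p under 0.05 with the block there were 16 polarity genes, 7 desmosome and plakin genes and 0 pannexins, beside 4335 of all 16514 transcripts. Of 36 tested transcripts of epithelial transcription factors, which include the epidermal regulators above, without the block 0 passed on the dorsal and 2 on the ventral side, and with it 1 and 14. The shares of all transcripts were 0.248% and 0.0787% without the block, and 2.37% and 2.34% with it. By p with the block, the homeobox transcript dlx5.L led. It measured 3.03, 1.64 and 1.45 RPKM in dorsal lips and 24.6, 11.3 and 12.8 RPKM in ventral lips. Its log2 fold change was -2.69, with a limma adjusted p of 0.0914 without the block and 0.000434 with it. The S copy dlx5.S passed both ways, at a log2 fold change of -2.28 and a limma adjusted p of 0.0152 without the block and 0.000529 with it.

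The whole embryo was then set against both lips of experiment 1, to see whether the cut-out lips hold more or less of these RNAs than whole embryos. With 1 whole embryo library there is no test, and a transcript was counted when it differed at least 2-fold in the same direction from both lips after 0.5 RPKM was added to each value. Of the 39 members that reached 1 RPKM in any of these 3 libraries, 0 did so in either direction, where 0.71% of all 16616 transcripts did, 0.5% above both lips and 0.211% below both. The whole embryo was above both lips for 9 members, below both for 19 and between them for 11, against 7276, 5233 and 4107 of all transcripts. The median log2 difference of the members was -0.14 from the dorsal and -0.09 from the ventral lip, and that of all transcripts was 0.06 and 0.02.

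By count, the claudins were the family most often lower in the whole embryo. The whole embryo was below both lips for 9 of 11 claudins, with median log2 differences of -0.32 from the dorsal and -0.30 from the ventral lip. The claudin cldn23.L stood at 4.76 RPKM in the whole embryo, against 8.04 RPKM in the dorsal and 8.73 RPKM in the ventral lip of experiment 1. The lips of experiments 2 and 3 held 5.19 and 5.72 RPKM on the dorsal and 5.60 and 4.77 RPKM on the ventral side, all at or above the level of the whole embryo. The claudin Xelaev18004734m (CLDN11) stood at 0.549 RPKM in the whole embryo, against 1.72 RPKM in the dorsal and 1.24 RPKM in the ventral lip of experiment 1, and between 0.758 and 1.09 RPKM in the other lips. It stays under 2-fold against the ventral lip with 0.5 RPKM added, and is counted as lower with 0.1 RPKM added. Of the CLDN7 transcripts, Xelaev18001082m was lower by log2 differences of -0.36 and -0.28, and in all 6 lips it was above the 260 RPKM of the whole embryo. Not every claudin kept this order in experiments 2 and 3. There cldn4.S stood at 35.4 to 41.0 RPKM, under the 52.6 RPKM of the whole embryo. Likewise cldn5.S stood at 0.608 to 0.881 RPKM in those lips, under the 0.965 RPKM of the whole embryo.

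Few members were higher in the whole embryo. The connexin copy gja7.S led, with 31.0 RPKM in the whole embryo, 23.3 RPKM in the dorsal and 23.5 RPKM in the ventral lip of experiment 1, and 11.3 to 14.4 RPKM in the other lips. The type I keratin Xetrov90024636m.1 (KRT15) stood at 1.85 RPKM in the whole embryo, 1.11 RPKM in the dorsal and 1.49 RPKM in the ventral lip of experiment 1. Occludin ocln.S and the zonula occludens transcripts tjp1.L and tjp1.S were above both lips of experiment 1 by log2 differences of at most 0.37. The lips of experiments 2 and 3 were above the whole embryo for all of them: ocln.S stood at 44.5 RPKM in the whole embryo and 46.5 to 49.4 RPKM in those lips, tjp1.L at 4.28 RPKM and 7.59 to 9.15 RPKM, and tjp1.S at 12.5 RPKM and 18.0 to 22.1 RPKM. For krt16.S, krt12.S and LOC549413.L, which differ between the sides, the whole embryo lay between the dorsal and the ventral lip of experiment 1.

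**Figure D5:**
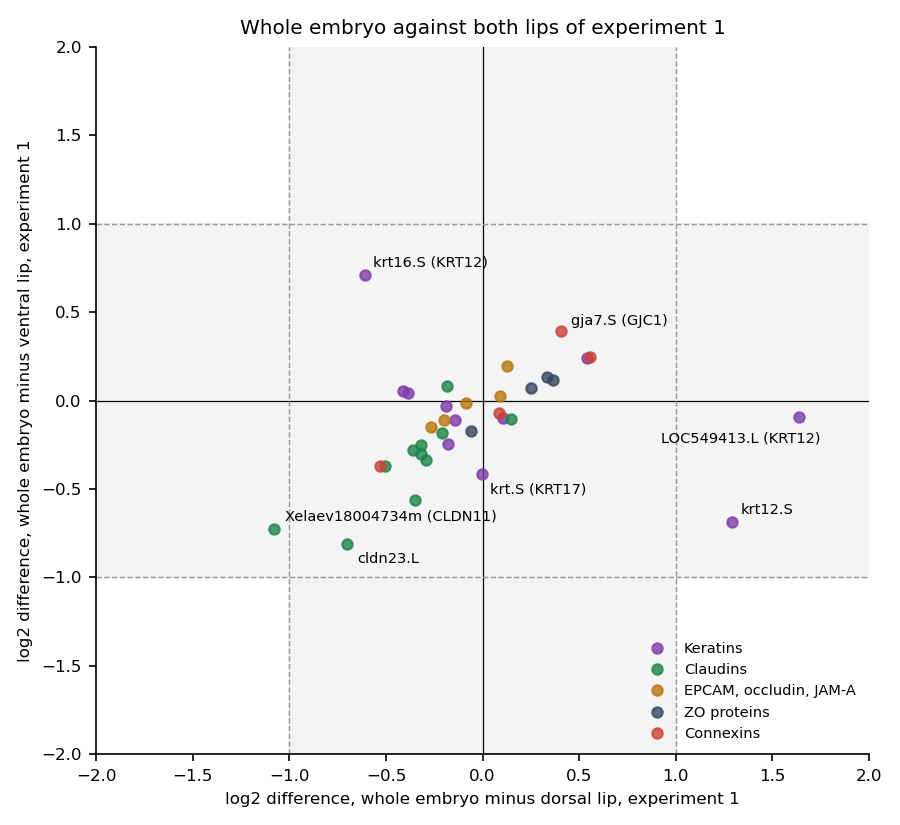
Log2 difference of the whole embryo from the dorsal lip (horizontal) and from the ventral lip (vertical) of experiment 1, on log2(RPKM + 0.5), for 35 members at 1 RPKM or more in any of the 3 libraries, coloured by family; dashed lines mark 2-fold. The lower left and upper right corners, at least 2-fold from both lips, hold 0 members, and most claudins lie below and to the left of the centre.

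Among the other epithelial lists, the whole embryo was at least 2-fold above both lips of experiment 1 for 2 of 29 tight junction partners, both MAGI1 copies. It was so for 2 of 38 transcripts of epithelial transcription factors, matched to GATA2 and GATA3. The remaining lists held 0 such transcripts, and the share of all transcripts was 0.5%. The copy Xetrov90026635m.S stood at 19.7 RPKM in the whole embryo, against 6.16 RPKM in the dorsal and 9.27 RPKM in the ventral lip of experiment 1. In experiments 2 and 3 it stood at 11.2 and 9.58 RPKM in dorsal lips and 19.4 and 18.0 RPKM in ventral lips. The copy Xetrov90026635m.L stood at 18.5 RPKM in the whole embryo, 7.04 RPKM in the dorsal and 8.74 RPKM in the ventral lip of experiment 1, and between 18.4 and 27.7 RPKM in the 4 lips of those experiments. For GATA2 the whole embryo held 20.3 RPKM and the dorsal and ventral lips of experiment 1 held 9.35 and 8.08 RPKM. In experiments 2 and 3 dorsal lips held 8.97 and 7.26 RPKM of it and ventral lips 1.14 and 1.54 RPKM. For GATA3 these were 12.5, 5.86 and 5.57 RPKM, then 4.12 and 3.54 RPKM in dorsal and 0.834 and 1.28 RPKM in ventral lips. The authors' deposited table of transcripts over 2-fold higher in both lips of experiment 1 than in the whole embryo lists 744 of all 44421 transcripts. Of the 166 members it lists 4. They include Xelaev18004734m (CLDN11), with ratios of 3.24 for the dorsal and 2.29 for the ventral lip, Xelaev18027868m (CLDN19) and gja1.S. The last 2 rest on 4 reads or fewer in each of these libraries.

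Members also differed between experiments. Averaged over both sides on log2(RPKM + 0.5), lips of experiment 1 were at least 2-fold above those of experiments 2 and 3 for 3 members. All were keratins, and the share of all transcripts was 5.17%. These were krt.S, LOC549413.L and krt16.S, with log2 differences of 1.48, 1.22 and 1.20. Of these, only krt.S had both lips of experiment 1 above all 4 others. For krt16.S the ventral lips measured 3.54, 0.416 and 0.435 RPKM, but the dorsal lips 9.62, 6.52 and 9.38 RPKM. By the same average, lips of experiment 1 were at least 2-fold below for 2 members, where 13.1% of all transcripts were. They were the zonula occludens transcript tjp1.L (-1.13) and the third occludin transcript MGC147419.1 (-1.40). Both lips of experiment 1 lay outside the range of the other 4 for 28 of the 39 members, 16 above and 12 below, and for 75.3% of all transcripts. Copies did not always share this. The copy krt18.S stood at 51.7, 85.7 and 85.2 RPKM in dorsal lips and 37.2, 82.0 and 85.0 RPKM in ventral lips. The copy krt18.L was also lowest in experiment 1 on each side, but its dorsal lip there lay within the range of the other 4. It stood at 243, 255 and 267 RPKM in dorsal lips and 180, 223 and 236 RPKM in ventral lips. The number of experiment and the sequencing lane cannot be told apart in these data.

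In the authors' deposited table, 98 members have an adjusted p for dorsal against ventral lips over experiments 2 and 3, and 2 of them, krt16.S and krt12.S, are under 0.05, where 3.38% of all transcripts with a value are. For 85 members it is listed at 1. The same transcripts are the only members in the authors' deposited lists of dorsal and ventral genes, krt16.S in the dorsal and krt12.S in the ventral lists.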

How the data were processed

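The labels give 1 whole embryo, 3 dorsal lip and 3 ventral lip samples, grouped by title, and libraries came from polyadenylated RNA read as single ends without a strand mark. The authors deposited an RPKM value for each transcript of the JGI 9.1 gene models, per the file headers. TopHat2 2.09 and DESeq are named in the submitters' processing notes without a role, while the read counter and the handling of multi-mapping reads, on which near-identical copies depend, were not stated in the sources used here. The adjusted p-value and the dorsal to ventral ratio deposited by the authors rest on experiments 2 and 3, and the ratio of each lip to the whole embryo on experiment 1, per the file headers. The correlation coefficient to chordin or BAMBI is a score deposited by the authors over samples of kinds not analysed here, and its kind is not stated.

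Members and lists were chosen with earlier results of these data known. A linear model was fitted with limma 3.58.1 (R 4.3.3; moderated test with a trend on the mean, two-sided) to log2(RPKM + 0.5) of the 16514 transcripts whose lip mean was 1 RPKM or more, with Benjamini-Hochberg adjustment over all of them and a threshold of 0.05. Fold changes on that scale understate changes near 0. Deviations from the group means of same-numbered dorsal and ventral libraries correlated at 0.926, 0.881 and 0.819 across transcripts. The file headers also tie the numbers to experiments, so they were taken to pair the libraries. Between experiments 2 and 3 the lips also correlated, at 0.839 and 0.748. The first value, of dorsal lip 2 with ventral lip 3, exceeds the 0.819 of lips 3. The correlations therefore set experiment 1 apart but cannot show that lips of experiments 2 and 3 pair by number.

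RPKM steps gave whole reads within 0.001 reads for all but 1 of 35326 transcripts above 0. These recovered reads entered limma voom as an alternative, which without the block called 46 transcripts. On simulated data for this comparison with 16514 transcripts, the fit recovered 22% of changes of 1 and 57% of changes of 2 on the log2 scale without the block, and 79% and 96% with it. The simulation gave same-numbered dorsal and ventral libraries the same experiment shift. Its gain with the block was therefore set in advance and does not test the pairing. Named are members past the test without or with the block, the 3 most abundant of each family (for the tight junction families, all at 1 RPKM or more), the 8 furthest above and below both lips in the whole embryo, and their L or S partners; of these, members whose differences were small are given by counts and ranges. From the other lists up to 5 transcripts past the test qualified. Of 69 members named by a symbol with an L or S suffix, 40 were found in the RefSeq gene table of assembly v10.1, used only for gene order. Some members that enter the counts are not reported here by name and are left out of the figures.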

Additional observations from a re-analysis of the deposited data

How the results depend on the processing

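Without the block, limma called 54 transcripts and 0 members. Pseudocounts of 0.1 and 1, no filter on low values, quantile normalisation and voom on recovered reads left the members at 0 and the transcripts within 1.5 times, and quantile normalisation moved the median of all transcripts from -0.05 to -0.02. With the replicate block, 777 transcripts and 5 members passed. Experiments 2 and 3 alone gave 698 and 2. Settings chosen after seeing the data gave 1658 and 9 for voom with the block (556 dorsal and 1102 ventral transcripts, against 391 and 386 in limma with the block), 1528 and 7 for experiments 2 and 3 with the block, 733 and 5 for a pseudocount of 0.1 with the block, and 120 and 1, krt12.S, for no filter with the block. The 9 members of voom with the block included the 5 keratins, krt18.L, tjp1.L and tjp1.S. Leaving out 1 lip gave 21 to 139 transcripts and 0 to 1 members without the block (krt16.S passed without ventral lip 1), and 1 to 7 members with it. With the block the transcripts were 1504 and 1503 without dorsal or ventral lip 1, 188 and 181 without lip 2, and 76 and 79 without lip 3. Without the block, leaving out 1 lip moved the fold change of krt.S between -0.89 (without dorsal lip 1) and 0.10 (without ventral lip 1, a turned sign). Of 851 refitted fold changes of 37 members, 86 sign changes fell on members past no test in either fit, the largest reaching 0.42. For the whole embryo, the 118 transcripts became 190 with a pseudocount of 0.1, 78 with 1, 44 against all 6 lips and 30 at 3-fold; members stayed at 0 except 1, Xelaev18004734m, with a pseudocount of 0.1. The cause of these shifts was not tested. Depth limits members under 1 RPKM, and 1 whole embryo library allows no error.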
